A study of Mus musculus with 7 samples.

Results

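The 10 genes described here encode the surface proteoglycans of the oligodendrocyte progenitor cell (OPC) and the proteins of the perineuronal matrix to which they bind: *Cspg4*, *Cspg5*, *Ptprz1*, *Acan*, *Bcan*, *Ncan*, *Vcan*, *Tnc*, *Tnr* and *Hapln1*. They were taken by symbol from the 33696 genes counted in nuclei of cultured BB-p53n OPCs, and all 10 were found once. Their levels were compared between nuclei with 0 unique molecular identifiers (UMIs) of *Pdgfra*, the PDGF receptor that marks OPCs, and nuclei with 2 or more. Of 10047 deposited barcodes, the 8917 with 2000 to 8000 detected genes were kept. Among these, 2341 nuclei had 0 *Pdgfra* UMIs, 1000 had 1 and 5576 had 2 or more.

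The study followed gliomas that grow in mouse brain after injection of BB-p53n OPCs, and asked in its culture sample how uniform the injected cells are. The cells were OPCs of *Trp53*fl/fl C57BL/6 pups of either sex at postnatal day 5 to 7, picked by an antibody to CD140a, which is the product of *Pdgfra*, and infected in culture with a retrovirus carrying PDGFB and Cre. Every nucleus therefore came from 1 population meant to carry the *Trp53* deletion and PDGF-BB overexpression, and OPCs without these alterations were not analysed here. All nuclei were in 1 library, so the groups below are groups of nuclei and not of samples, no test was made, and every interval is a 95% exact one that covers counting error only. The brains with tumors, 3 collected at an early stage and 3 late, were not analysed here.

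The kept nuclei held 141138093 UMIs, with a median of 13771 per nucleus. *Trp53* was at 24.8 CPM (a count scaled by all UMIs of the nuclei), summed over the gene, so that this level does not show which exons the transcripts held, and mouse *Pdgfb* was at 0.531 CPM. OPC markers were present, with *Olig1* at 618 CPM, *Olig2* at 293 CPM and *Sox10* at 87.3 CPM. The mature oligodendrocyte markers *Mag*, *Mog* and *Mobp*, the astrocyte markers *Aqp4* and *Gja1*, and the fibroblast and pericyte list as a whole were each under 1 CPM, and *C1qa* of microglia and *Cldn5* of endothelial cells had 0 UMIs. Other genes of the astrocyte list were present: *Slc1a3*, which OPCs are also known to make, at 237 CPM, *Aldoc* at 192, *S100b* at 91.9 and *Slc1a2* at 13.7 CPM. They went both ways between nuclei with 0 and with 2 or more *Pdgfra* UMIs. *Slc1a3* was at 306 and 214 CPM and *Aldoc* at 217 and 182 CPM, while *S100b* was at 24.8 and 110 CPM and *Slc1a2* at 7.41 and 15.4 CPM. Summed over each list, 8 astrocyte genes were at 558 CPM in nuclei with 0 *Pdgfra* UMIs and 523 CPM in those with 2 or more. In the same order, 8 neuronal genes were at 109 and 156 CPM, 6 microglial genes at 7.86 and 7.10 CPM, and 5 endothelial genes at 13.3 and 8.22 CPM. Neuronal genes went both ways, with *Syt1* at 59.7 and 118 CPM and *Rbfox3* at 13.8 and 1.41 CPM. Outside cluster 1, the *Xist* cluster described in the next paragraph, the ratios of these 2 genes were 1.51 and 5.62. Of the markers of committed and mature oligodendrocytes, *Gpr17* and *Mbp* were lower without *Pdgfra*. *Gpr17*, of committed precursors, was at 2.25 and 11.7 CPM, a ratio of 0.193, and 0.574 outside cluster 1, the *Xist* cluster described in the next paragraph. *Mbp*, of myelin, was at 0.449 and 3.20 CPM, a ratio of 0.141, and 0.432 outside cluster 1. The part of all these markers in the results below was not tested.

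The *Pdgfra* groups differed in more than *Pdgfra*. Clustering with the settings of the study gave 8 clusters, numbered 0 to 7. The study gives fewer clusters for these cells, and fewer nuclei after the same cutoffs than were left here, so the clusters here are not its clusters. Cluster 1 held 1557 of the 2341 nuclei with 0 *Pdgfra* UMIs (66.5%) but 59 of the 5576 with 2 or more (1.06%). Of the 1733 nuclei of cluster 1, 90.9% had UMIs of *Xist*, the RNA of the inactive X chromosome, and none of 4 Y-linked genes. *Xist* was at 710 CPM in nuclei with 0 *Pdgfra* UMIs and 46.1 CPM in those with 2 or more. *Egfr*, the receptor of epidermal growth factor, was at 200.5 and 21.6 CPM, and *Sox10* at 20.1 and 107 CPM. The median depth was 10621 and 16258 UMIs, the mitochondrial share 6.33% and 6.35%, and the summed level of 9 proliferation genes 2225 and 2437 CPM. Each ratio of the 10 genes between the *Pdgfra* groups is therefore given for all kept nuclei and again outside cluster 1, where 784 and 5517 nuclei remained. This restriction was chosen after the data were seen. For other genes the ratio outside cluster 1 is given in part. The groups still differed there, with *Egfr* at 101.9 and 19.5 CPM, a ratio of 5.23, and *Sox10* at 61.8 and 108 CPM, a ratio of 0.574.

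Brain extracellular matrix is built on hyaluronan, a sugar chain that the lecticans aggrecan, brevican, neurocan and versican bind, while link proteins hold them to it and tenascins join lecticans to one another. Around some neurons this lattice condenses into perineuronal nets. OPCs make much of it, and they carry the proteoglycan NG2 and the receptor phosphatase PTPRZ1 on their own surface. Each lectican carries chondroitin sulfate chains that restrain growing axons.

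Pooled over the library, nuclei without *Pdgfra* UMIs held less of most of these transcripts and more *Tnc*. *Acan* was at 2.13 CPM without *Pdgfra* and 14.8 CPM with 2 or more UMIs, *Cspg4* at 25.3 and 74.9 CPM, and *Vcan* at 99.5 and 225 CPM. *Tnc* went the other way, with 517 and 130 CPM. The ratio of CPM without *Pdgfra* to CPM with 2 or more was 0.5 or less for 4 of the 10 genes, *Acan*, *Cspg4*, *Hapln1* and *Vcan*, where 6.43% of the 14531 genes with at least 100 UMIs had such a ratio. It was 2 or more for *Tnc* alone, where 8.7% of these genes were. The median ratio of the 10 genes was 0.537, and that of the 14531 genes was 1.11. Nuclei with 1 *Pdgfra* UMI, just outside both groups, had 237 CPM of *Vcan*, 64.1 CPM of *Cspg4*, 8.13 CPM of *Acan* and 223 CPM of *Tnc*. Since nuclei without *Pdgfra* were shallower, the groups were also made after thinning each nucleus to 5000 UMIs, and then *Acan*, at 0.363, and *Hapln1*, at 0.233, were at 0.5 or less, where 1.98% of all genes were, *Cspg4* was at 0.582 and *Vcan* at 0.682. *Tnc* alone was then at 2 or more, where 6.45% of all genes were.

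**Figure D1:**
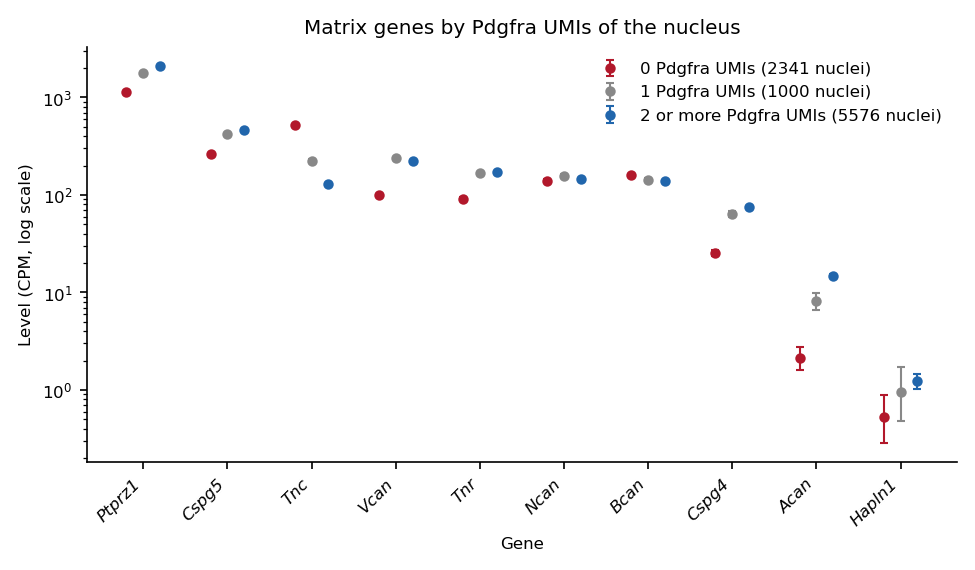
Level of each matrix gene in CPM (vertical log axis) in nuclei with 0, 1 and 2 or more *Pdgfra* UMIs, as points with 95% exact Poisson intervals, many smaller than the point. *Tnc* is at 517, 223 and 130 CPM in the groups, *Acan* at 2.13, 8.13 and 14.8 CPM, and *Ncan* and *Bcan* stay within 138 to 159 CPM.

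Outside cluster 1 most of these differences were small. *Acan* alone had a ratio of 0.5 or less, where 1.58% of all genes did, and 0 of the 10 genes had a ratio of 2 or more, where 5.23% did. The median ratio was 1.07 over the 10 genes and 1.04 over all genes. The next lowest ratio after *Acan* was that of *Cspg4*, at 0.820 (0.747 to 0.899), and the highest was that of *Tnc*, at 1.44 (1.36 to 1.52). For *Vcan* the direction turned, from 0.443 (0.425 to 0.461) in all kept nuclei to 1.32 (1.27 to 1.38) outside cluster 1. What the make-up of the nuclei contributes to each pooled ratio was not tested beyond these values.

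The counts differed between other sets of nuclei as well. In nuclei with *Xist* and no Y-linked UMI, 7 of the 10 genes had a ratio of 0.5 or less, where 10.2% of all genes did, and *Tnc* alone had 2 or more, where 6.95% did. In nuclei with a Y-linked UMI and no *Xist*, *Acan* and *Hapln1* had 0.5 or less, where 3.03% did, and 0 had 2 or more, where 5.11% did. In nuclei with neither, 0 had 0.5 or less, where 2.29% did, and *Tnc* and *Hapln1* had 2 or more, where 8.45% did. For *Tnc* this rested on nuclei of cluster 1, since its ratio with neither was 1.37 outside that cluster, where that of *Hapln1* was 2.88. In cluster 1, 5 had 0.5 or less, where 8.48% did, and 0 had 2 or more, where 7.2% did. *Hapln1* rested on 0 UMIs without *Pdgfra* in each of these sets except that with neither, where it had 14.

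**Figure D2:**
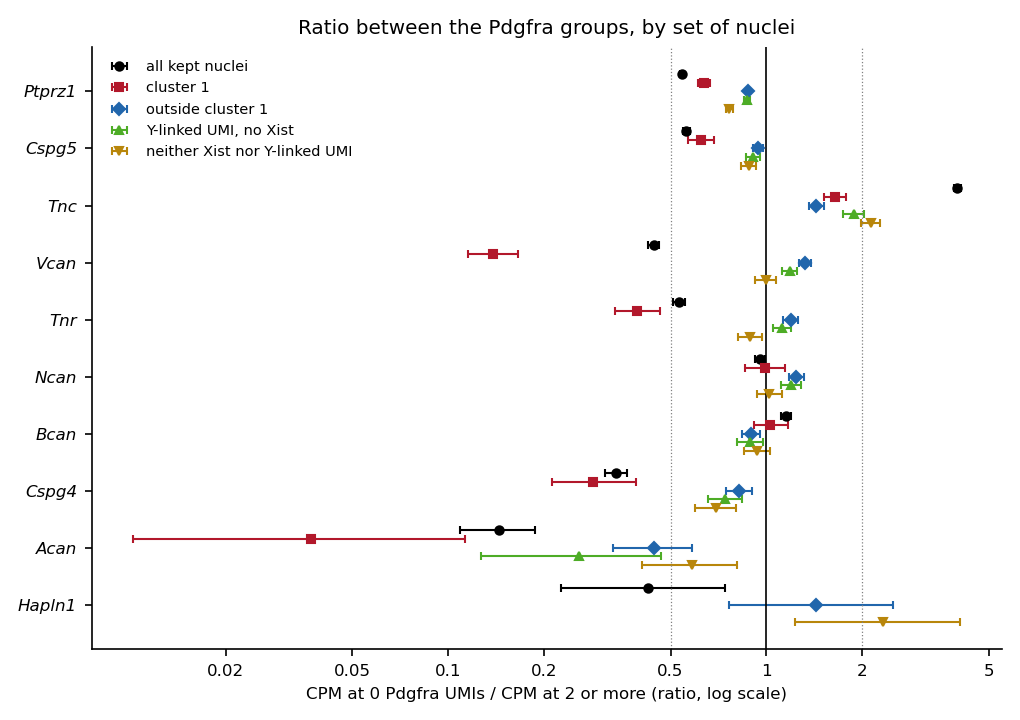
Ratio of CPM at 0 *Pdgfra* UMIs to CPM at 2 or more (horizontal log axis) for each gene, in all kept nuclei, in cluster 1, outside it, and in nuclei with a Y-linked UMI and no *Xist* or with neither, with 95% exact intervals. Ratios with 3 UMIs or fewer in a group are not drawn, the solid line marks 1 and the dotted lines 0.5 and 2. Outside cluster 1 all genes but *Acan* lie between 0.820 and 1.44.

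The start regions of the 4 genes whose pooled ratios were farthest from 1, apart from *Hapln1* with its few UMIs, are shown as context, since *Acan*, *Cspg4* and *Vcan* were low where *Tnc* was high. Each is the 250 bases before the canonical start in GRCm39 with GENCODE vM39, read 5′ to 3′ on the strand of the gene, with capitals for matches to the motifs searched. *Acan* is on the plus strand (chr7:78702714-78702963), *Cspg4* on the plus strand (chr9:56772067-56772316), *Vcan* on the minus strand (chr13:89890815-89891064) and *Tnc* on the minus strand (chr4:63965444-63965693).
Acan: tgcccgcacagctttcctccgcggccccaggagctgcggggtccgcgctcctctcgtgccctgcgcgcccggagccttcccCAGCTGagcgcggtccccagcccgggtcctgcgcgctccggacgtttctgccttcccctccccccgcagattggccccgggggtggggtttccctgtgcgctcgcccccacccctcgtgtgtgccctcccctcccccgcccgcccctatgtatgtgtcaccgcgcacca
Cspg4: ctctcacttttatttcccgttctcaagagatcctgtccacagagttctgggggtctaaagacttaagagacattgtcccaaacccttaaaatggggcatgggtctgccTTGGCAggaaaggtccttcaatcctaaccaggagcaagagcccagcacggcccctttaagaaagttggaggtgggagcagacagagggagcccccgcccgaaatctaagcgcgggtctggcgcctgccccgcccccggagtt
Vcan: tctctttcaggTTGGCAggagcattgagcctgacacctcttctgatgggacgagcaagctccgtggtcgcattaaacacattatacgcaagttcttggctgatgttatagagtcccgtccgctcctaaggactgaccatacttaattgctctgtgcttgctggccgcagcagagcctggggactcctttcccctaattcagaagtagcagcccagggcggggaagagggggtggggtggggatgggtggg
Tnc: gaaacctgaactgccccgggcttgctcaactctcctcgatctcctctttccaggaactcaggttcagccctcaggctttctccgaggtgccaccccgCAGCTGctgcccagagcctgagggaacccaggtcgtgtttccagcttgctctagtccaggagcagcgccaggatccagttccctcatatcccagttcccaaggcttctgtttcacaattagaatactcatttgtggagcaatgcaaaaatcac
The motifs were a SOX motif (ACAAAG), an E-box (CAGCTG), an AP-1 motif (TGANTCA) and a nuclear factor I motif (TTGGCA), each on both strands, and a forward TATAAA. They were picked by general knowledge of glia, with the ratios known. The *Acan* region holds the E-box, as does that of *Tnc*, while those of *Cspg4* and *Vcan* hold the nuclear factor I motif. Over all 10 genes, the E-box was in 5 regions, where 11.9% of 21757 such regions hold it, and the nuclear factor I motif in 4, where 12.3% do. The SOX motif was in the regions of *Ptprz1* and *Tnr* (15.9% of all regions), and the AP-1 motif (6.18%) and TATAAA (8.04%) in 0 of the 10. The *Acan* region is the richest in G and C of the 4, at 74.4% with 26 CpG dinucleotides, against 54.8% to 56.0% and 6 to 9 in the others and a median of 53.2% over all regions. A match is a run of letters and not a bound site.

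In the library as a whole the level ran from 1895 CPM for *Ptprz1* to 1.08 CPM for *Hapln1*. The order by CPM was *Ptprz1*, *Cspg5* (426), *Tnc* (211), *Vcan* (202), *Tnr* (156), *Ncan* (146), *Bcan* (142), *Cspg4* (64.7), *Acan* (11.9) and *Hapln1*. Of the neighbours in this order, only *Ncan* and *Bcan* had intervals that overlapped. Since nuclear RNA holds introns, levels of different genes were also set per kilobase of gene span, and then *Cspg5* was first at 22.7 CPM per kb, followed by *Ptprz1* (10.6), *Bcan* (9.28) and *Ncan* (4.22). *Tnr*, whose gene spans 408 kb, was at 0.381 CPM per kb, *Acan* at 0.192 and *Hapln1* at 0.0147. Together the 10 genes made up 3255 CPM. After each nucleus was thinned to 5000 UMIs, a median of 5 of the 10 genes was detected in a nucleus with 2 or more *Pdgfra* UMIs and 4 in one with 0.

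Among the surface proteins, a *Cspg4* UMI was found in 53.3% of the kept nuclei and in 25.7% after thinning to 5000 UMIs, fewer than for *Ptprz1* and *Cspg5*. *Ptprz1* (ENSMUSG00000068748), a receptor phosphatase whose outer part carries chondroitin sulfate and binds pleiotrophin, lies on the plus strand at chr6:22875358-23054236. It ranked 30 among all genes by UMIs, and a UMI of it was found in 98.8% of thinned nuclei. It was at 1141 CPM (1128 to 1154) without *Pdgfra* and 2101 CPM (2093 to 2110) with 2 or more UMIs, a ratio of 0.543. Outside cluster 1 the ratio was 0.877 (0.862 to 0.891), and within the clusters taken one by one its interval lay below 1 in 7 of 8, so the lower level without *Pdgfra* was seen in most clusters. Among the clusters, cluster 1 had the least, at 890 CPM, and cluster 0 the most, at 2642 CPM.

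*Cspg5* (ENSMUSG00000032482) encodes neuroglycan C, a membrane proteoglycan of neural cells, and lies on the plus strand at chr9:110072851-110091644. It was at 263 CPM (257 to 269) without *Pdgfra* and 469 CPM (465 to 473) with 2 or more UMIs. Its ratio of 0.560 became 0.943 (0.911 to 0.976) outside cluster 1. Cluster 1 had 195 CPM, and each of the other clusters had between 424 and 585 CPM.

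*Cspg4* (ENSMUSG00000032911) encodes NG2, the proteoglycan by which OPCs are often recognized, and lies on the plus strand at chr9:56772317-56807187. It was at 25.3 CPM (23.4 to 27.3) without *Pdgfra* and 74.9 CPM (73.3 to 76.6) with 2 or more UMIs, a ratio of 0.338 (0.312 to 0.365). In cluster 1 it was at 12.2 CPM, and in the other clusters it was between 64.7 and 92.6 CPM. The share of thinned nuclei with a *Cspg4* UMI was 5.52% in cluster 1 and 31.1% in nuclei with 2 or more *Pdgfra* UMIs. As a gauge of free RNA and mixed droplets, Y-linked UMIs were found in 4.57% (3.68 to 5.59) of thinned nuclei that had 3 or more *Xist* UMIs, and in 24.8% of those without *Xist*. Even in cluster 1 the level of *Cspg4* was lower without *Pdgfra* than with it, with 189 and 59 UMIs and a ratio of 0.285 (0.212 to 0.389). The group with 2 or more *Pdgfra* UMIs there was 59 nuclei, with a median depth of 27871 UMIs against 11384 in the 1557 without *Pdgfra*. It held more *Sox10*, at 42.9 against 2.71 CPM, and less *Xist*, at 584 against 991 CPM. Both *Xist* and Y-linked UMIs were in 18.6% of these 59 nuclei, against 4.37% of the 1557. The part of these differences in the ratios within cluster 1, for *Cspg4* and for the other genes, was not tested.

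**Figure D3:**
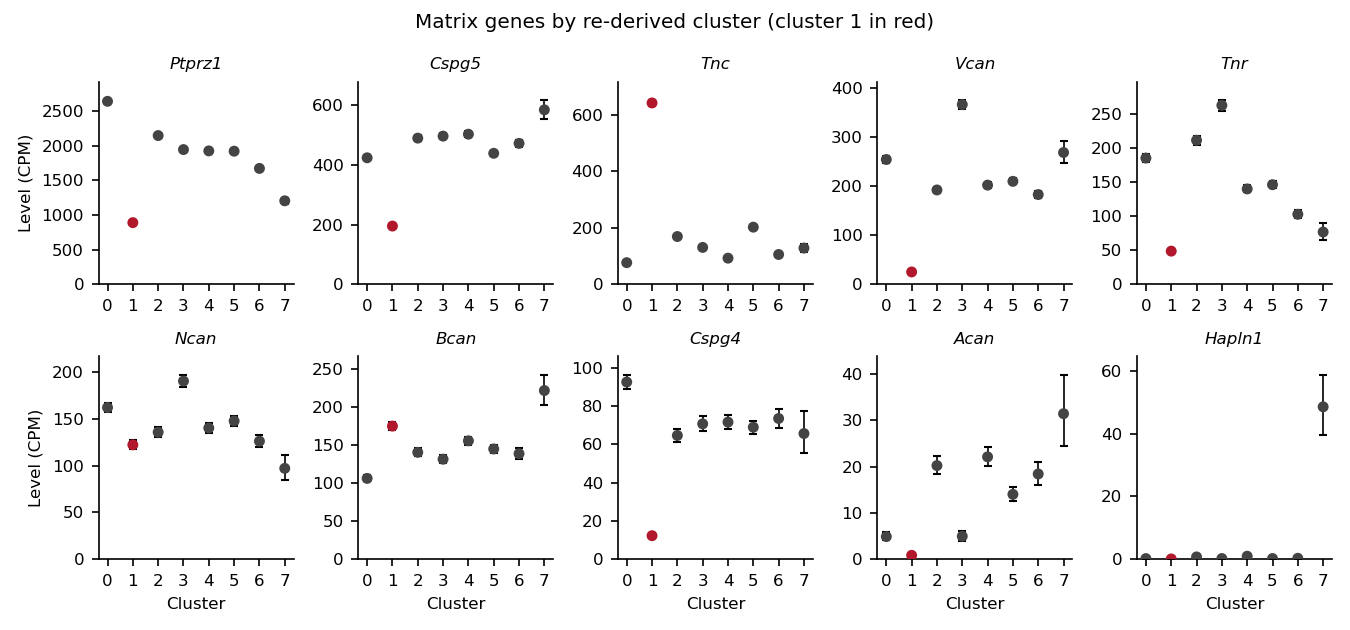
Level of each matrix gene in CPM (vertical axes from 0) in the 8 re-derived clusters, with 95% exact Poisson intervals and cluster 1 in red. Cluster 1 is the lowest for *Ptprz1*, *Cspg5*, *Vcan*, *Tnr*, *Cspg4*, *Acan* and *Hapln1* and the highest for *Tnc*, and *Hapln1* stands at 48.6 CPM in cluster 7.

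The clusters were made from the same nuclei, and *Vcan*, *Acan*, *Ptprz1*, *Tnr*, *Tnc*, *Hapln1* and *Pdgfra* were among the variable genes used, so cluster levels are a description. With the 10 genes and *Pdgfra* left out of the clustering, the median ratio outside the matching cluster was again 1.07, and *Vcan* and *Tnc* still had their extreme clusters at 25.1 and 643 CPM.

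Of the lecticans, *Acan* and *Vcan* differed most between the pooled groups and *Bcan* and *Ncan* least. *Vcan* (ENSMUSG00000021614) encodes versican, the lectican most abundant in immature brain, and lies on the minus strand at chr13:89803431-89890814. Its level was 25.0 CPM in cluster 1, where no other cluster had less than 183 CPM or more than 366 CPM. A *Vcan* UMI was found in 8.04% of thinned nuclei of cluster 1, against 27.3% of those with 0 and 62.5% of those with 2 or more *Pdgfra* UMIs. Within cluster 1 the ratio was 0.138 (0.115 to 0.166), set against the same 59 deeper nuclei with more *Sox10*. Outside it, 480 of the 784 nuclei without *Pdgfra* were in cluster 3, the cluster with the most *Vcan*, at 366 CPM. Within cluster 3 the ratio was 0.959 (0.903 to 1.02) and within cluster 0 it was 1.01 (0.904 to 1.12), so the value above 1 outside cluster 1 was not seen in either.

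*Acan* (ENSMUSG00000030607) encodes aggrecan, the lectican that defines perineuronal nets, and lies on the plus strand at chr7:78702964-78764847. It was scarce, with 1674 UMIs in 1180 nuclei, of which 853 had 1 UMI. Its ratio of 0.144 (0.109 to 0.188) rested on 57 and 1523 UMIs, and 0.323% of the 14531 genes had a lower ratio. With groups made after thinning it was 0.363. Outside cluster 1 it was 0.444 (0.330 to 0.585). Clusters 0 and 3, which held most of the remaining nuclei without *Pdgfra*, had 4.87 and 4.94 CPM, and clusters 2, 4, 5, 6 and 7 had 14.0 to 31.4 CPM. Within cluster 3 the ratio was 0.716 (0.383 to 1.28) and within cluster 0 it was 0.976 (0.384 to 2.08), so neither interval excluded 1. By sex-linked UMIs the ratio was 0.583 (0.408 to 0.808) in nuclei with neither, which held 1115 of the UMIs at 2 or more *Pdgfra* UMIs, and 0.257 (0.127 to 0.468) from 11 UMIs without *Pdgfra* in those with Y-linked UMIs only. With *Xist* only it was 0.0347 (0.0146 to 0.0708), from 8 and 111 UMIs. Outside cluster 1 it was 0.723 (0.507 to 1.00) with neither and 0.262 (0.129 to 0.476) with Y-linked UMIs only, again from 11 UMIs without *Pdgfra*. With *Xist* only it was there 0.776 (0.157 to 2.33), from 3 UMIs without *Pdgfra*.

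*Bcan* (ENSMUSG00000004892) and *Ncan* (ENSMUSG00000002341) encode brevican and neurocan, the lecticans of adult and of developing brain. *Bcan* lies on the minus strand at chr3:87894835-87910177, and *Ncan* on the minus strand at chr8:70538926-70573523. *Bcan* was at 159 CPM (155 to 164) without *Pdgfra* and 138 CPM (136 to 140.3) with 2 or more UMIs, and *Ncan* at 140.0 CPM (136 to 145) and 146 CPM (144 to 149). Outside cluster 1 these ratios passed to the other side of 1, from 1.15 to 0.897 (0.839 to 0.957) for *Bcan* and from 0.956 to 1.24 (1.18 to 1.31) for *Ncan*. Within cluster 3 the ratio of *Ncan* was 0.968 (0.890 to 1.05), and within cluster 0 it was 1.13 (0.991 to 1.28). Of the 8 clusters taken singly, the interval held 1 in 7 for each gene. In the remaining 1 it lay below 1 for *Bcan* and above 1 for *Ncan*. Across clusters *Bcan* ran from 106 to 222 CPM and *Ncan* from 97.1 to 191 CPM, and cluster 7 was the highest for *Bcan* and the lowest for *Ncan*. In cluster 1, where the other lecticans were at their lowest, *Bcan* was at 175 CPM and *Ncan* at 122 CPM.

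In all kept nuclei the tenascins went in opposite directions. *Tnc* (ENSMUSG00000028364) encodes tenascin-C, a glycoprotein of germinal zones and injured tissue that is common in glioma, and lies on the minus strand at chr4:63878014-63965443. It was at 517 CPM (508 to 525) without *Pdgfra*, 223 CPM with 1 UMI and 130 CPM (128 to 132) with 2 or more, a ratio of 3.98 (3.89 to 4.08). Cluster 1 had 642 CPM, and the other clusters between 76.4 and 202 CPM. In thinned nuclei of cluster 1, 86.7% had a *Tnc* UMI. The ratio stayed above 1 in every set of nuclei drawn in the plot of ratios, at 1.64 (1.52 to 1.78) in cluster 1, with 59 nuclei in its upper group, 1.44 outside it, 1.88 in nuclei with a Y-linked UMI and no *Xist* and 2.13 in those with neither. The set with neither still held nuclei of cluster 1, and had 873 *Tnc* UMIs in 345 nuclei without *Pdgfra*. Outside cluster 1 that set had 452 UMIs in 289 such nuclei, and the ratio was 1.37. The ratio was there 1.79 with Y-linked UMIs only and 1.48 with *Xist* only. Within the 8 clusters its interval lay above 1 in 5 and held 1 in 3. Higher *Tnc* without *Pdgfra* was thus seen in each of these sets of nuclei, by a smaller factor in each than in all kept nuclei.

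*Tnr* (ENSMUSG00000015829) encodes tenascin-R, which links lecticans in perineuronal nets and is made by the oligodendrocyte lineage, and lies on the plus strand at chr1:159351339-159759299. It was at 90.8 CPM (87.2 to 94.5) without *Pdgfra* and 171 CPM (169 to 174) with 2 or more UMIs, a ratio of 0.530. Outside cluster 1 the ratio passed to the other side of 1, at 1.19 (1.13 to 1.25), and it was 1.12 in nuclei with a Y-linked UMI and no *Xist*. It was below 1 in nuclei with neither, at 0.890 (0.813 to 0.972), and with *Xist* only, at 0.333 (0.304 to 0.365). Outside cluster 1 it was 1.02 (0.930 to 1.12) with neither and 1.20 (0.868 to 1.62) with *Xist* only. Cluster 1 had 48.7 CPM, cluster 7 had 76.8 CPM and cluster 3 had 263 CPM. Within single clusters the interval lay below 1 in 4, above it in 1 and held it in 3.

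*Hapln1* (ENSMUSG00000021613), the link protein that fastens lecticans to hyaluronan, lies next to *Vcan*, 43.5 kb away, on the plus strand at chr13:89686581-89759950. It had 152 UMIs in 61 nuclei, of which 36 had 1 UMI. Of the 182 nuclei of cluster 7, 39 had a UMI (21.4%, 15.7 to 28.1), against 22 of the 8735 outside it (0.252%, 0.158 to 0.381). Cluster 7 held 105 of the 152 UMIs, a level of 48.6 CPM, and each of the other clusters was under 1 CPM. A single nucleus of cluster 7 held 33 UMIs, and without it the level there was 33.8 CPM. The ratio between the *Pdgfra* groups, 0.425 (0.226 to 0.739), rested on 14 UMIs in 4 nuclei without *Pdgfra* and 127 UMIs in those with 2 or more. Without the nucleus with 33 UMIs it was 0.574 (0.302 to 1.01), and outside cluster 1 it was 1.43 (0.761 to 2.49), so its side of 1 was not fixed. *Hapln1* and *Vcan*, though neighbours, did not share a pattern, since *Vcan* was at 268 CPM in cluster 7 and 366 CPM in cluster 3.

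**Figure D4:**
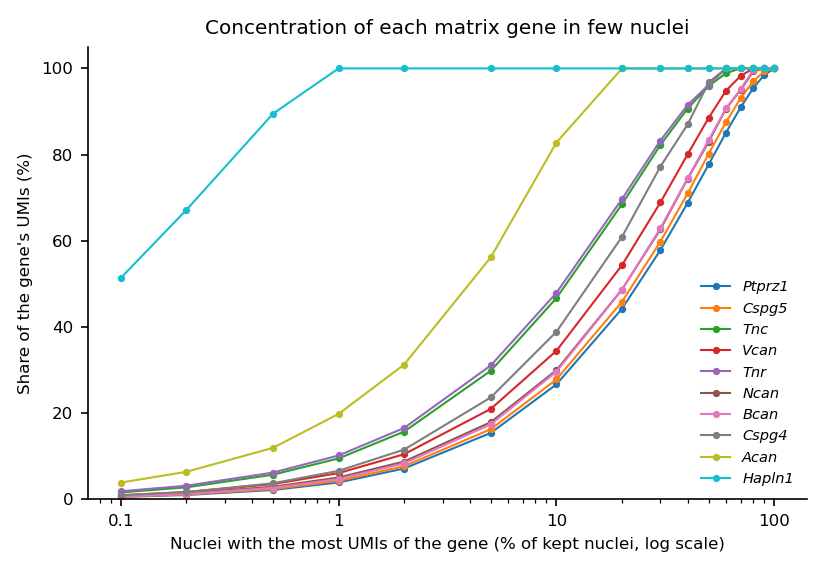
Share of the UMIs of each matrix gene (vertical axis, %) that lies in the nuclei with the most UMIs of it, ranked per gene (horizontal log axis, % of kept nuclei). *Hapln1* reaches 100% within 1% of nuclei and *Acan* 19.8%, while for the other genes that 1% of nuclei holds 3.86% to 10.1%.

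The nuclei with *Xist* and no Y-linked UMI were mostly those of cluster 1, but 359 lay elsewhere, 219 of them in cluster 5. Cluster 5 was the deepest, with a median of 30276 UMIs, and 16.9% of its nuclei had both *Xist* and Y-linked UMIs, against 2.96% of all kept nuclei. The part of mixed droplets in the levels of these nuclei was not tested. In the 359, *Vcan* was at 175 CPM and *Cspg4* at 57.2 CPM, above cluster 1 but below each of the other clusters, which had at least 183 and 64.7 CPM, and *Tnc* was at 260.3 CPM, above the level of every cluster but cluster 1. In nuclei with a Y-linked UMI and no *Xist* outside cluster 1, *Vcan* was at 301 CPM, *Cspg4* at 80.6 CPM and *Tnc* at 115 CPM. Without cluster 5, 140 *Xist* nuclei remained, and their *Vcan* was at 215 CPM (196 to 235), *Cspg4* at 66.3 CPM (56.0 to 77.9) and *Tnc* at 116 CPM (103 to 131), against 313, 80.8 and 112 CPM in the Y-linked nuclei. The *Tnc* level above every cluster but cluster 1 therefore rested on cluster 5. So did the *Vcan* and *Cspg4* levels below each of the other clusters, since 215 and 66.3 CPM are not below 183 and 64.7 CPM. Sex of origin and cluster overlap too far in 1 library to be told apart.

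When nuclei outside cluster 1 were grouped by *Pdgfra* UMIs after thinning, which gives every nucleus the same depth, *Acan* was at 9.68, 13.5, 14.6 and 17.5 CPM at 0, 1, 2 and 3 or more UMIs. *Ptprz1* followed the same order, at 1951, 2077, 2148 and 2215 CPM. *Tnc* was at 151, 121, 126 and 106 CPM, and *Cspg4* at 72.5, 74.2, 75.1 and 83.9 CPM. *Vcan* was highest at 0 UMIs, with 267 CPM, and between 233 and 241 CPM at the others. Nuclei with 0 UMIs after thinning include many that had a *Pdgfra* UMI before it.

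Across the 8760 thinned nuclei, correlations between the 10 genes were low. Counting noise lowers r for sparse genes, and the mean after thinning was 0.00765 UMIs for *Hapln1*, 0.0543 for *Acan* and 0.317 for *Cspg4*. A low r therefore does not show that such genes vary apart. Pearson's r of log1p UMIs, given as a description of nuclei that share 1 library, was 0.2 or more in 2 of 45 pairs and -0.2 or less in 3. The highest was 0.256 for *Vcan* and *Ptprz1* and the lowest -0.355 for *Ptprz1* and *Tnc*. Outside cluster 1 every pair lay between -0.0899 and 0.0943. Of the 10079 genes with at least 1000 UMIs, the gene most like *Ptprz1*, *Vcan* and *Cspg5* was *Cntn1*, with r of 0.574, 0.395 and 0.346, and the gene most like *Tnc* was *Xist*, with 0.501. For the other 6 genes no r reached 0.3. Outside cluster 1 that level was reached once, by *Ptprz1* and *Sox2ot*, at 0.338.

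The enzymes that build chondroitin sulfate were counted as a group of 22 genes, 21 of them with at least 100 UMIs. Their median ratio was 1.18, with 2 at 0.5 or less and 2 at 2 or more. These counts, and those of the lists that follow, stand beside 6.43% and 8.7% of all genes in all kept nuclei, and 1.58% and 5.23% outside cluster 1. Those with the highest levels were *Xylt1*, which starts the chain, at 668 CPM, *Chst11*, a chondroitin 4-O-sulfotransferase, at 317 CPM, *Csgalnact1* at 141 CPM and *Chsy3* at 107 CPM. The ratio of *Chst11* was 0.451 (0.437 to 0.466) and that of *Chst15* 0.469 (0.316 to 0.675), while *Chst7*, a 6-O-sulfotransferase, was at 3.17 (2.97 to 3.38) and *Chst14* at 3.21 (2.16 to 4.75). Outside cluster 1 these were 0.977, 1.06, 1.15 and 3.11, so that *Chst14*, with 128 UMIs, alone kept a ratio of 2 or more.

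Of 10 hyaluronan genes, 9 had at least 100 UMIs, with 1 at 0.5 or less and 3 at 2 or more. *Has2*, a hyaluronan synthase, was at 5.54 CPM without *Pdgfra* and 21.1 CPM with 2 or more UMIs, a ratio of 0.262 (0.221 to 0.310). *Cd44*, the hyaluronan receptor, had a ratio of 2.38 (2.22 to 2.54), and the hyaluronan-degrading *Cemip2* and *Cemip* 2.27 and 4.34. Outside cluster 1, *Has2* was at 0.843, *Cd44* at 1.67, *Cemip2* at 1.30 and *Cemip* at 2.67. *Hmmr*, a hyaluronan-binding protein of the mitotic spindle, was the most abundant at 163 CPM, with a ratio of 0.866.

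Of 11 proteases and inhibitors of the matrix, 7 had at least 100 UMIs. *Timp3*, a metalloproteinase inhibitor, at 115 CPM, had a ratio of 0.409 (0.387 to 0.431), *Adamts20* 0.267 and *Adamts1* 0.492, while *Adamts4*, a lectican-cleaving protease, had 2.01 (1.78 to 2.27). *Adamts8*, outside the naming rule and named because it completes the count, had 4.92 from 237 UMIs. *Adamts9*, at 72.1 CPM, had 0.576. Outside cluster 1, *Adamts5* alone, named after its value was seen, had a ratio of 2 or more, at 2.79, and 0 were at 0.5 or less. *Adamts8* passed to the other side of 1 there, at 0.573. *Timp3* was at 0.788, *Adamts20* at 0.712, *Adamts1* at 0.810, *Adamts4* at 1.26 and *Adamts9* at 0.967.

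Of 9 receptors and partners of the 10 genes, 7 had at least 100 UMIs, with 1 at 0.5 or less and 1 at 2 or more. *Cntn1*, an axonal and glial adhesion molecule that binds PTPRZ1 and tenascins, was at 754 CPM without *Pdgfra* and 2849 CPM with 2 or more UMIs, and at 127 CPM in cluster 1, and its ratio of 0.265 became 0.863 outside that cluster. *Ptn*, pleiotrophin, the ligand of PTPRZ1, was at 2119 CPM with a ratio of 0.684 (0.677 to 0.691) and 0.914 outside cluster 1. *Ptprs*, a phosphatase receptor of chondroitin sulfate, was at 152 CPM with a ratio of 0.730, and *Nrcam* at 100.4 CPM with 0.866. Outside cluster 1, *Ptprs* had 0.874 and *Nrcam* passed to the other side of 1, at 1.36. *Rtn4rl1*, a Nogo receptor homolog, had 4.55 (3.75 to 5.52) from 479 UMIs and 1.58 outside cluster 1, where *L1cam*, named after its value was seen, had 2.29 from 231 UMIs in all kept nuclei.

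Of 15 heparan sulfate proteoglycans, 14 had at least 100 UMIs, with a median ratio of 1.06, 3 at 0.5 or less and 3 at 2 or more. *Sdc4*, a syndecan, was at 26.5 CPM without *Pdgfra* and 2.44 CPM with 2 or more UMIs, a ratio of 10.9 (9.38 to 12.6), and at 36.5 CPM in cluster 1. *Hspg2*, perlecan, had 3.32 and *Gpc4* 3.23, and *Gpc5* had 0.274 (0.244 to 0.306). *Spock2* and *Spock3*, named because they complete the count, had 0.214 and 0.324. *Gpc6*, the most abundant at 670.1 CPM, had 0.634, *Sdc3* 0.525 and *Sdc2* 1.29. Outside cluster 1 these were 1.43 for *Sdc4*, 0.665 for *Hspg2*, 0.933 for *Gpc4*, 0.704 for *Gpc5* and 0.627 for *Gpc6*. *Spock2* alone stayed at 0.5 or less, at 0.493. *Spock3* was there at 1.02, *Sdc3* at 0.982 and *Sdc2* at 1.63. Of the other link proteins and tenascins, *Hapln4* was at 5.16 CPM with a ratio of 1.20 (1.00 to 1.43), and *Hapln2*, *Hapln3*, *Tnxb* and *Tnn* had fewer than 100 UMIs each.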

How the data were processed

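Single nucleus RNA-seq (10x 3′ v3.1) was done on 1 library of BB-p53n OPCs grown in culture. Raw UMI counts were deposited by the authors as a matrix of genes by barcodes, made with Cell Ranger 8.0.1 and mm39 per the labels. Cell Ranger 8.0.1 counts introns by default, and whether this was changed is not given in the sources used here. The labels say that these nuclei were isolated without debris removal or filtering. GENCODE vM39 on GRCm39, the same build, placed all 10 genes by Ensembl identifier.

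Nuclei within the study's cutoffs of 2000 and 8000 detected genes were kept. CPM were summed UMIs of a gene over summed UMIs of the nuclei, with 95% exact Poisson intervals, ratios of CPM with exact conditional intervals, and shares with exact binomial intervals. A ratio of 0.5 or less or 2 or more was counted, beside its share among the 14531 genes with at least 100 UMIs. Shares of nuclei were taken after thinning to 5000 UMIs, which left out 157 nuclei, 75 of them with 0 and 37 with 2 or more *Pdgfra* UMIs. Unthinned, a *Cspg4* UMI was in 21.1% and 68.0% of the nuclei with 0 and with 2 or more, a *Vcan* UMI in 38.0% and 90.8%, and a *Tnc* UMI in 81.1% and 58.3%. Clusters were re-derived with Seurat 5.3.0 in R 4.3.3 (scale factor 1000, 3000 variable genes, total UMIs regressed out, principal components 1 to 20, 200 neighbors, resolution 1) and given no cell type name. The study used another Seurat version. Other computing used Python 3.11.15, NumPy 2.4.6 and SciPy 1.17.1. Scrublet in scanpy 1.11.5 called 0 of 8917 nuclei as doublets, which was not taken to mean that there were none, and no nuclei were removed. Both *Xist* and Y-linked UMIs were in 264 nuclei (2.96%), with a median of 21166 UMIs, and these are in none of the sets split by sex-linked UMIs. The ratio intervals were tested on simulated data, but no outcome of that is given here, and they cover counting error only.

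The 10 genes and the other lists were chosen with earlier results of these data known. Genes named beside them are the up to 4 with the most UMIs in each of 6 further lists, up to 4 per list past a fold with at least 100 UMIs, and, for likeness, the gene with the highest r if it was at least 0.3. Alternatives were other filters on detected genes, mitochondrial share or depth, other *Pdgfra* groups, other scalings, nuclei by sex-linked UMIs, removal of high Scrublet scores and other clusterings. Those on cluster 1, on the nucleus with the most *Hapln1* UMIs and on nuclei with both *Xist* and Y-linked UMIs were chosen after the data were seen. The oligodendrocyte marker list is not reported here as a sum.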

Additional observations from a re-analysis of the deposited data

How the results depend on the processing

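The median ratio of the 10 genes was 0.537, and it was 0.517 with 3000 to 7000 detected genes, 0.682 with groups made after thinning, 0.460 in nuclei with at least 10000 UMIs, 0.682 with at most 5% mitochondrial UMIs, 0.520 without the 8% of nuclei with the highest Scrublet score, and 0.407, 0.898 and 0.912 in nuclei with *Xist* only, with Y-linked UMIs only and with neither. It was 0.509 in cluster 1 and 1.07 outside it, also when the clustering left the genes out. The 4 genes at 0.5 or less became 2 after thinning (1.98% of all genes), 7 with *Xist* only (10.2%), 2 with Y-linked UMIs only (3.03%), 0 with neither (2.29%), and 1 outside cluster 1 in either clustering. In cluster 1 they were 5 (8.48%). They were 6 in nuclei with at least 10000 UMIs. They were 3 as a mean over nuclei, with at most 5% mitochondrial UMIs and without the nucleus with the most *Hapln1* UMIs, and 4 in the other settings. Apart from cluster 1, the share of all genes was not taken in these settings, so their counts have no share to be read against. The 1 gene at 2 or more became 0 in cluster 1 (7.2% of all genes), 0 outside it in either clustering, 0 with Y-linked UMIs only (5.11%) and 2 with neither (8.45%). Of these 2, *Tnc* was at 1.37 in the nuclei with neither that lay outside cluster 1. The summed level of 3255 CPM was 3239 with 3000 to 7000 genes, 3475 without mitochondrial genes, 3225 after thinning, 3215 as a mean over nuclei, 3530 with at most 5% mitochondrial UMIs, 2402 with *Xist* only, 3636 with Y-linked UMIs only, 3412 with neither, 2111 in cluster 1, 3468 outside it in either clustering and 3266 without the nuclei with both *Xist* and Y-linked UMIs, whose removal left the counts at 4 and 1. The ratio passed to the other side of 1 for *Vcan* with Y-linked UMIs only (1.18) and outside cluster 1 (1.32 in either clustering), and for *Hapln1* with neither (2.32) and outside cluster 1 (1.43 in either clustering). Of the genes between 0.5 and 2, *Tnr* also passed 1 with Y-linked UMIs only (1.12) and outside cluster 1 (1.19), as did *Ncan* (1.20 and 1.24, and 1.02 with neither) and *Bcan* (0.888 and 0.897, 0.934 with neither and 0.998 with at most 5% mitochondrial UMIs). Of 180 alternative values of the 10 ratios, 79 lay within the counting interval of the value in all kept nuclei, and 18 lay on the other side of 1. The causes were not tested beyond the values given. Precision is limited for *Hapln1*, with 152 UMIs. No paired analysis was possible because the replicate numbers shared between groups belong to brain samples not analysed here, and the culture is 1 library.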

Other observations

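Cluster 7, the smallest of the 8 with 182 nuclei, stood apart in genes beside *Hapln1* that were looked at because *Hapln1* was there. *Gpc5* was at 157 CPM in cluster 7 and between 5.73 and 63.0 CPM in the others, and *Gpc4* at 135 CPM, against 52.9 CPM in cluster 1 and at most 17.6 CPM in the remaining clusters. *Cemip2* was at 104 CPM and *Cd44* at 70.8 CPM, each the highest of the clusters, with 67.8 and 57.3 CPM in cluster 1. *S100b* was at 303 CPM, and the second highest cluster had 153 CPM. In having no UMI of *Xist* or of the Y-linked genes in 90.1% of its nuclei, cluster 7 was like clusters 2, 4 and 6, with 85.3% to 91.7%.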
